A study of Homo sapiens with 4 samples.

Results

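The apocrine and secretory breast products described here are 10 genes, PIP, AZGP1, CYP4Z1, OLFM4, MUCL1, SCGB2A2, SCGB1D2, LTF, CEACAM6 and CEACAM5, of 19775 genes with a probe set of a single symbol. The set was given by symbol. PIP, AZGP1, CYP4Z1 and OLFM4 were taken because their signals had been seen to be lower with p53 shRNA in these same arrays, so their p53 ratios are a description. For the other 6 genes the selection gave no such reason, but it was made with results of these data known. The 10 genes were read by 12 of the 54675 probe sets of the array, 2 each for CEACAM6 and CEACAM5 and 1 for each other gene.

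The cells were SK-BR-3, a long-established human breast cancer line that carries amplified HER2 and a missense mutation in p53. The 4 groups were SK-BR-3 with p53 shRNA and siRNA against Pontin, with p53 shRNA, with siRNA against Pontin on the control shRNA, and with control shRNA, 1 array each. The arms without Pontin siRNA are titled sicon, which the labels do not spell out, and the control shRNA is also called an empty vector there. All cells had been selected with puromycin, and RNA was collected 24 h after siRNA transfection. The labels do not say whether each shRNA population was selected more than once, and they give no shRNA or siRNA sequence.

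Apocrine epithelium is the secretory cell type of apocrine sweat glands and of apocrine metaplasia in the breast, and some breast tumours carry its products. PIP and AZGP1 are classical secreted products of such cells, the secretoglobin SCGB2A2 is the breast marker mammaglobin A, and LTF is the iron-binding lactoferrin of milk and mucosal fluids. The CEACAM genes encode adhesion molecules of the carcinoembryonic antigen family that are anchored at the surface of secretory epithelia.

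The values are MAS5 signals, a brightness per probe set on a linear scale that the authors scaled to a common level on each array. A log2 ratio compares 2 arrays. For p53 shRNA there were 2 pairs with no array in common, the pair without Pontin siRNA (p53 shRNA over control shRNA) and the pair with Pontin siRNA (both knockdowns over Pontin siRNA alone). For Pontin siRNA the pairs were formed in the same way, in cells with control shRNA and in cells with p53 shRNA. Where 2 ratios of a gene are given below, they stand in this order. A gene was called where its ratios in both pairs pointed the same way and each reached 1.5-fold, 0.58 on the log2 scale. No group had a replicate, so differences are judged by their size. The distance between the pairs serves as the only gauge of spread. It cannot be told apart from an effect of either knockdown on the other, and does not measure variation between separately selected populations. A fit that takes both knockdowns as additive leaves 1 residual degree of freedom and was run as an alternative only. In bulk RNA, fewer cells making a transcript and less of it per cell cannot be told apart.

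RUVBL1, the gene of Pontin, had a signal of 65.8 with both knockdowns and 127.4 with Pontin siRNA, against 398.2 with p53 shRNA and 477.7 with control shRNA. Medians over all probe sets were 19.6 on the array with both knockdowns and 15.9 to 16.5 on the others. The 18 hybridization control probe sets of that array averaged 1.42 times those of the control array. The 3′ to 5′ signal ratio of ACTB lay between 2.66 and 3.48 and that of GAPDH between 0.972 and 1.04, and arrays with and without p53 shRNA overlapped on both measures. Of 7 luminal markers, 6 passed the filter on signal and none of these was called, with a median p53 log2 ratio of 0.12 and 5 of 6 above 0 in both pairs. ERBB2 was at 5581, 4823.2, 5008.5 and 4966.5 with both knockdowns, p53 shRNA, Pontin siRNA and control shRNA. CDH1 was low, at 1.8 to 13.0, and the oestrogen receptor gene ESR1 was at 9.3 to 22.4. Summed signals of 5 fibroblast markers lay between 188 and 209, with COL1A1 as the main contributor, and those of 4 blood cell markers between 46.0 and 81.2, with HBB at 34.7 to 48.3 as the one that passed the filter and PTPRC at 3.7 to 8.3. The summed signal of 5 basal or mesenchymal markers was 76.0 with both knockdowns and 57.0 with p53 shRNA, against 34.3 with Pontin siRNA and 38.3 with control shRNA, and KRT5 alone of them passed the filter. That of 3 endothelial markers was 149.6 with both knockdowns and 132.8 with p53 shRNA, against 98.9 with Pontin siRNA and 103.9 with control shRNA, with VWF at 2.9 to 8.1. These dim sums were higher on the arrays with p53 shRNA. The part of these markers and of the array differences in the results below was not tested.

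Of the 10 members, 8 passed a filter on signal, a geometric mean over the 4 arrays of at least 15.4, which is the median probe set. SCGB1D2, with a geometric mean of 15.2, lay just under it and LTF, with 1.22, far under it. PIP, AZGP1, CYP4Z1, OLFM4, SCGB2A2 and CEACAM6 also lay at or above the 75th percentile, a signal of 110.9, and are called bright. MUCL1 was just below that level, with a geometric mean of 104.5.

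The 250 bases upstream of the annotated start are shown for the 5 members that were called lower with p53 shRNA, and for CEACAM5, the gene next to CEACAM6. They are RefSeq sequences on GRCh38.p14, written 5′ to 3′ along the gene's strand. Capitals mark matches, on either strand, to any of 5 short motifs: the steroid receptor hexamer AGAACA, the forkhead motif TGTTTAC, the GATA motif AGATAA, the STAT motif TTCNNNGAA and the TATA box TATAAA.
PIP, chr7:143131827-143132076, plus strand: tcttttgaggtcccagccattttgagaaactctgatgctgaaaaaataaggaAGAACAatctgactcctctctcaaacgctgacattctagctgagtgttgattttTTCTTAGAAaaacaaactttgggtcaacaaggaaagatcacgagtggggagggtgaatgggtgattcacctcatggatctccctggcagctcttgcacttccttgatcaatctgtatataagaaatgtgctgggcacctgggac
AZGP1, chr7:99976032-99976281, minus strand: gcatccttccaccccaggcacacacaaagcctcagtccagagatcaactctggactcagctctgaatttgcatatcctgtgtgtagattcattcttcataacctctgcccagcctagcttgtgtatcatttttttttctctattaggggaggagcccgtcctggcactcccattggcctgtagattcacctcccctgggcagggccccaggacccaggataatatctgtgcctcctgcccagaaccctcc
CYP4Z1, chr1:47066981-47067230, plus strand: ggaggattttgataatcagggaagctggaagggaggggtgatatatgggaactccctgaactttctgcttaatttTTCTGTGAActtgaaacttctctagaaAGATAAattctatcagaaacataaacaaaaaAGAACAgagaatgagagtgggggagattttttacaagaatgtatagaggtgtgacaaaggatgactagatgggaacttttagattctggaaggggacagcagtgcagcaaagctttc
OLFM4, chr13:53028563-53028812, plus strand: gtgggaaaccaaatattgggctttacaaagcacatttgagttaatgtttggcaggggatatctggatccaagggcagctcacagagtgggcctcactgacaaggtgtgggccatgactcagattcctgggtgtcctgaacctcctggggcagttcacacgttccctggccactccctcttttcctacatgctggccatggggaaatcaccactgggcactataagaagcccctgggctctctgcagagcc
CEACAM6, chr19:41755280-41755529, plus strand: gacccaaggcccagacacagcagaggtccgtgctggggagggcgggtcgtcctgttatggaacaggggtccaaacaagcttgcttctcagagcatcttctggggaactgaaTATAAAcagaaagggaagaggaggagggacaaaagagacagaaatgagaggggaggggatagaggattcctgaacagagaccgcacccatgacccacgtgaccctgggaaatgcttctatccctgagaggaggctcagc
CEACAM5, chr19:41708376-41708625, plus strand: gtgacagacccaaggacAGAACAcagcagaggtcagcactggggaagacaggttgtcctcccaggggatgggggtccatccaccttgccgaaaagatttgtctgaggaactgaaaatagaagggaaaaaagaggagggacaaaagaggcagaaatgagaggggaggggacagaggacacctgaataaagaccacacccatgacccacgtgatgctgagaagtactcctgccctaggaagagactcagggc

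The PIP window held AGAACA from 198 to 193 bases and the STAT motif from 144 to 136 bases upstream of the start. The CYP4Z1 window held the STAT motif from 175 to 167, the GATA motif from 148 to 143 and AGAACA from 117 to 112 bases upstream. CEACAM6 held the letters TATAAA from 139 to 134 bases upstream, and CEACAM5 had AGAACA from 233 to 228. Only the listed letters were searched, so TATAAG, which is in the PIP and OLFM4 windows, was left unmarked. Whether any match is in use was not tested. AZGP1 and OLFM4 had no match to these letters in these windows. No match overlapped another. The members not shown had no p53 call. Of these, windows of LTF held AGAACA and the STAT motif, that of SCGB2A2 held TGTTTAC, and MUCL1 and SCGB1D2 had no match. Over 35114 promoter windows of the same length, 12.4% held AGAACA, 2.98% TGTTTAC, 9.17% AGATAA, 6.57% the STAT motif and 10.7% TATAAA. CEACAM6 and CEACAM5, which are adjacent genes on chromosome 19, were identical at 190 of 258 aligned columns of these windows, 73.6%. The PIP and AZGP1 windows, both from chromosome 7, were identical at 48.6% of 288 columns, and the PIP and OLFM4 windows at 45.5% of 286.

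With p53 shRNA, 5 of the 8 members kept were called lower and 0 higher: PIP, OLFM4, CYP4Z1, AZGP1 and CEACAM6. Over the 12056 genes kept, 0.863% were called lower and 1.38% higher. Among the 7732 bright genes 0.414% were called lower, and 5 of the 6 bright members. Because 4 of these 5 had been chosen for their fall, nothing is read from this share. Among the 4 members kept that had not been, CEACAM6 was called and MUCL1, SCGB2A2 and CEACAM5 were not. The median mean p53 ratio was -1.04 over the 8 members, -0.53 over the 4 kept and not chosen for a fall, and 0.00 over all genes kept. Those 4 were CEACAM6 at -1.02, MUCL1 at -0.77, CEACAM5 at -0.30 and SCGB2A2 at -0.15. SCGB1D2, with a mean of 1.21, and LTF were not chosen for a fall either, but failed the filter and are outside these medians.

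**Figure D1:**
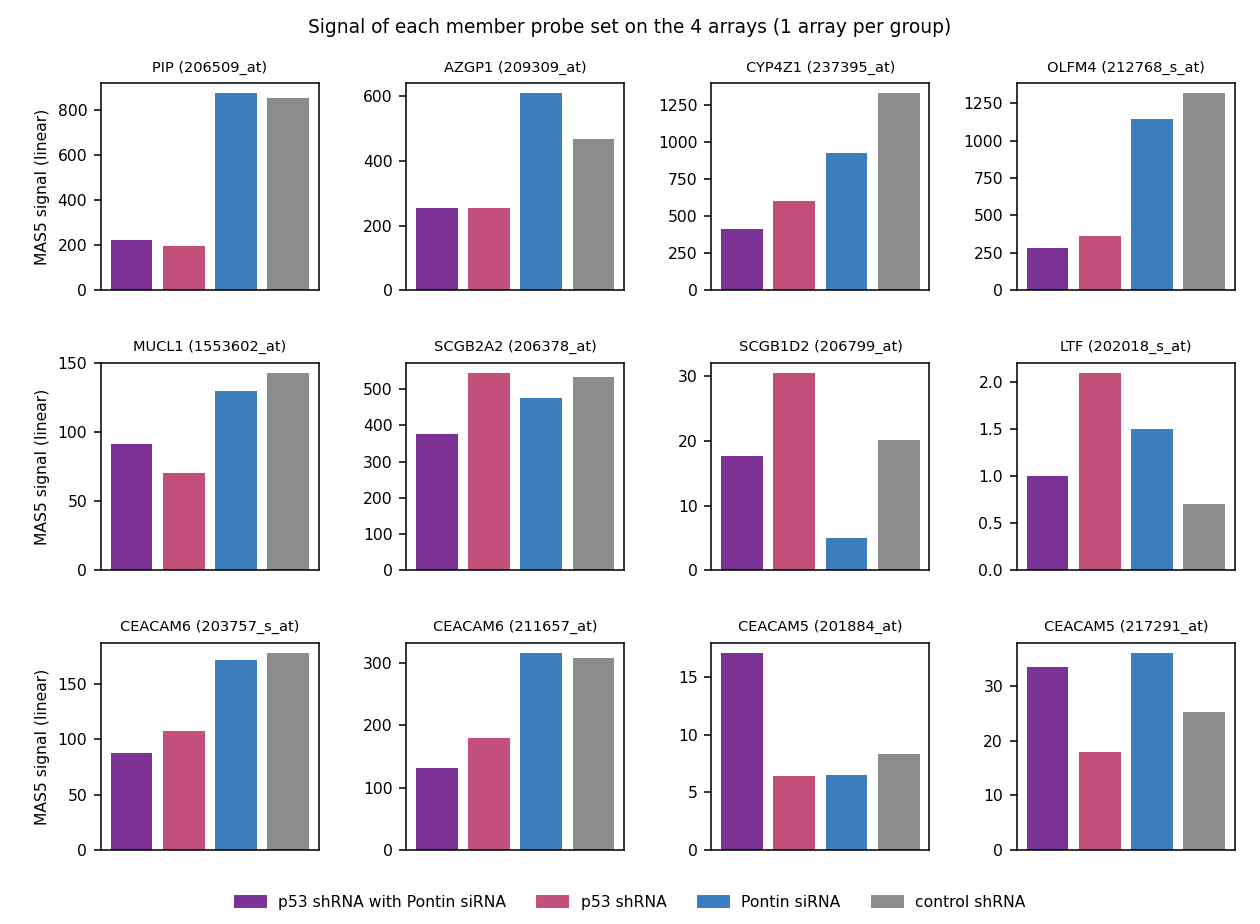
MAS5 signal (linear, each panel from 0 on its own scale) of the 12 member probe sets on the 4 arrays, from left to right p53 shRNA with Pontin siRNA, p53 shRNA, Pontin siRNA and control shRNA, with 1 array per bar. For PIP, AZGP1, CYP4Z1, OLFM4, MUCL1 and both CEACAM6 probe sets the 2 left bars are lower than the 2 right bars, while LTF stayed between 0.7 and 2.1.

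PIP encodes prolactin-induced protein, a secreted product of apocrine glands used as a marker of apocrine differentiation. Its signal was 222.2 with both knockdowns and 195.8 with p53 shRNA, against 875.0 with Pontin siRNA and 854.0 with control shRNA. Both arrays with p53 shRNA lay far below both arrays without it. PIP was 4.36-fold lower in the pair without Pontin siRNA and 3.94-fold lower in the pair with it, log2 ratios of -2.12 and -1.98. Ranked by mean p53 ratio from the lowest, it was number 2 of the 7732 bright genes.

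AZGP1 encodes a secreted zinc-binding glycoprotein linked to lipid mobilisation. Its signal was 255.5 with both knockdowns and again 255.5 with p53 shRNA, against 608.4 with Pontin siRNA and 467.1 with control shRNA. The p53 shRNA arrays were level with each other and below both others. The log2 ratios were -0.87 and -1.25, with signals lower by 45.3% in the pair without and by 58.0% in the pair with Pontin siRNA. The gene ranked number 9 among bright genes by mean p53 ratio. A further probe set, annotated to both AZGP1 and its pseudogene AZGP1P1, was left out of the member values. Its signal was 77.9 with both knockdowns and 33.0 with p53 shRNA, against 112.8 with Pontin siRNA and 75.9 with control shRNA, and its p53 log2 ratios were -1.20 and -0.53. That probe set did not reach 1.5-fold in the second of these pairs, and its signals with both knockdowns and in the control nearly coincided.

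CYP4Z1 encodes a cytochrome P450 fatty acid hydroxylase expressed mainly in mammary tissue. Its signal was 414.7 with both knockdowns and 601.2 with p53 shRNA, against 928.2 with Pontin siRNA and 1331.9 with control shRNA. The arrays with p53 shRNA were the lowest, and each array with Pontin siRNA lay below its partner. The p53 log2 ratios were -1.15 and -1.16, the closest agreement between pairs of any member kept, and the gene ranked number 6. CYP4X1, the neighbouring gene on chromosome 1 and a member of the same family, had signals of 44.1 with both knockdowns and 58.6 with p53 shRNA, against 103.3 with Pontin siRNA and 125.6 with control shRNA. It was called lower as well, with p53 log2 ratios of -1.10 and -1.23 on its single probe set. Cross-hybridization between the 2 transcripts was not tested.

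OLFM4 encodes olfactomedin 4, a secreted glycoprotein known as a marker of intestinal stem cells and of neutrophil granules. Its signal was 283.5 with both knockdowns and 364.9 with p53 shRNA, against 1144.3 with Pontin siRNA and 1316.8 with control shRNA. Both arrays with p53 shRNA lay below both without it by a wide margin. The gene was 3.61-fold and 4.04-fold lower, log2 ratios of -1.85 and -2.01, and ranked number 3. Its only probe set is of a type that can bind more than 1 transcript, so OLFM4 has no value when such probe sets are left out.

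CEACAM6 encodes a surface adhesion molecule anchored by a lipid. On its brighter probe set its signal was 131.9 with both knockdowns and 179.3 with p53 shRNA, against 315.8 with Pontin siRNA and 306.9 with control shRNA. On the dimmer probe set it was 87.4 with both knockdowns and 106.9 with p53 shRNA, against 171.2 with Pontin siRNA and 177.8 with control shRNA. Both probe sets put the arrays with p53 shRNA below the arrays without it. The p53 log2 ratios were -0.78 and -1.26 on the brighter probe set and -0.73 and -0.97 on the dimmer, so the call held on each. The dimmer probe set is, like that of OLFM4, of a type that can bind several transcripts. By mean ratio on the brighter probe set CEACAM6 ranked number 10 of the bright genes, next to AZGP1.

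CEACAM5, which encodes carcinoembryonic antigen itself, lay among the dim probe sets. On its brighter probe set the signal was 33.5 with both knockdowns and 18.0 with p53 shRNA, against 36.1 with Pontin siRNA and 25.2 with control shRNA. On the dimmer probe set, which did not pass the filter, it was 17.1 with both knockdowns and 6.4 with p53 shRNA, against 6.5 with Pontin siRNA and 8.3 with control shRNA. The 2 probe sets ordered the arrays differently and the p53 groups overlapped on each. The p53 log2 ratios were -0.49 and -0.11 on the brighter probe set and -0.38 and 1.40 on the dimmer one. CEACAM5 was not called, and its probe sets differed in sign in the pair with Pontin siRNA.

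MUCL1 encodes a small mucin of breast and salivary epithelium. Its signal was 91.4 with both knockdowns and 70.2 with p53 shRNA, against 129.8 with Pontin siRNA and 143.1 with control shRNA. The arrays with p53 shRNA were the lower ones in both pairs. The log2 ratios were -1.03 and -0.51, so the pair with Pontin siRNA, at 1.42-fold, did not reach the threshold and MUCL1 was not called. MUCL1 lay just outside the threshold of 1.5-fold. CEACAM6 and AZGP1, whose smaller ratios were -0.78 and -0.87, lay inside it at 1.71-fold and 1.83-fold.

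SCGB2A2, mammaglobin A, is a small secreted protein of breast epithelium that forms a complex with the product of SCGB1D2, the gene next to it on chromosome 11. Its signal was 376.5 with both knockdowns and 545.4 with p53 shRNA, against 475.6 with Pontin siRNA and 534.1 with control shRNA. The groups overlapped, with the highest signal on a p53 shRNA array. The p53 log2 ratios were 0.03 and -0.34, number 1428 from the lowest of the bright genes by their mean. SCGB2A2 is thus the bright member without a p53 call.

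SCGB1D2 had a signal of 17.6 with both knockdowns and 30.5 with p53 shRNA, against 5.0 with Pontin siRNA and 20.1 with control shRNA. It lay around the median of all probe sets, and the groups overlapped. Its p53 log2 ratios were 0.60 and 1.82, both past 1.5-fold, but it failed the filter on signal. LTF, whose product binds iron in secretions, had 1.0 with both knockdowns and 2.1 with p53 shRNA, against 1.5 with Pontin siRNA and 0.7 with control shRNA. These signals lay at percentile 5.71 of all probe sets, the lowest of any member. No fold is drawn from values of this size.

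**Figure D2:**
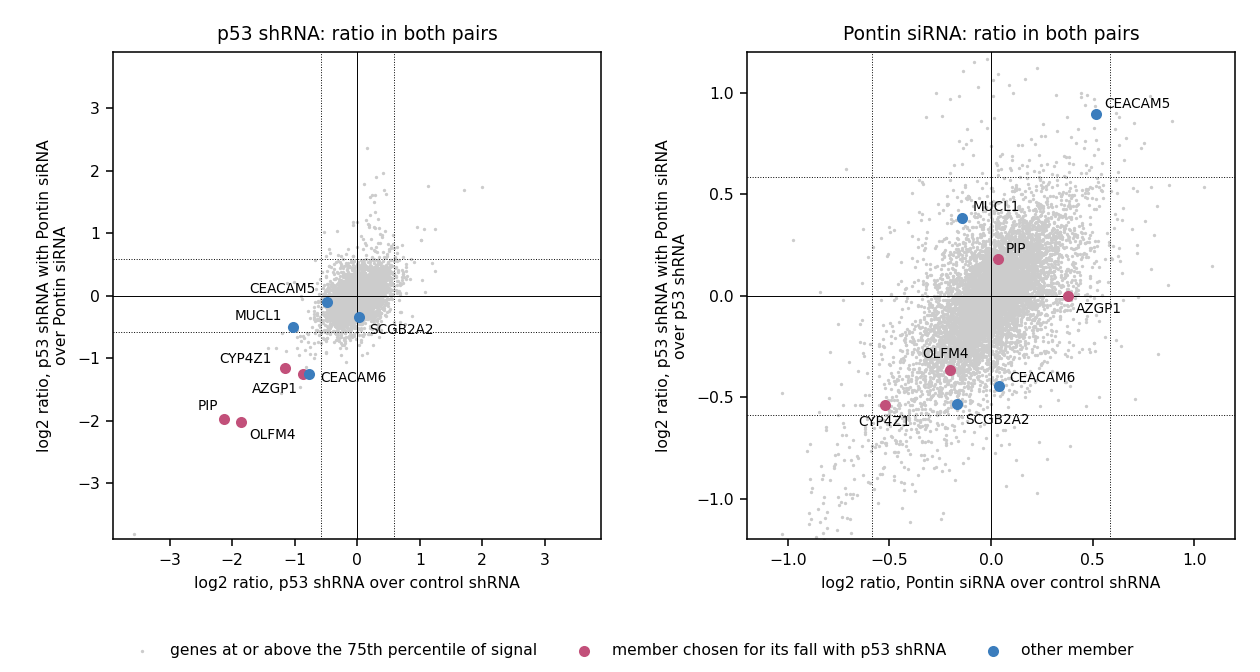
Log2 ratio in the pair without the other knockdown (horizontal) and with it (vertical) for p53 shRNA (left) and Pontin siRNA (right). Grey points are the 7732 bright genes, of which 31 lie outside the axes on the right and 0 on the left, red points the 4 members chosen for their fall, blue points the other 4 members kept, and dotted lines mark 1.5-fold. On the left PIP, OLFM4, CYP4Z1, AZGP1 and CEACAM6 lie past 1.5-fold in both pairs, and on the right no member does.

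With Pontin siRNA, 0 of the 8 members kept were called lower and 0 higher, where 1.24% of genes kept were called lower and 1.16% higher. The members' median mean ratio was -0.05, against 0.01 over all genes kept. CYP4Z1 came nearest on the lower side, with log2 ratios of -0.52 on the control shRNA background and -0.54 with p53 shRNA, 1.43-fold and 1.45-fold lower. It ranked number 184 from the lowest of the bright genes by this mean. OLFM4 was at -0.20 and -0.36, and SCGB2A2 at -0.17 and -0.53. PIP, at 0.04 and 0.18, and AZGP1, at 0.38 and 0.00, were not below 0 as deposited. With each array centred on its median the mean Pontin ratio of PIP turned to -0.06 and that of AZGP1 was 0.02, with -0.29 in its second pair. CEACAM5 came nearest on the higher side on its brighter probe set, at 0.52 and 0.90, with its other probe set at -0.35 and 1.42. CEACAM6 on its brighter probe set was at 0.04 and -0.44, and MUCL1 at -0.14 and 0.38, with no common direction between pairs. The MUCL1 mean turned to -0.05 under median centring. That setting also moved the median Pontin ratio of all genes kept from 0.01 to -0.16, so these changes of sign are read against it.

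The p53 ratio of each member was next set side by side in cells with and without Pontin siRNA. The difference between the pairs, which is the departure of the array with both knockdowns from the sum of the single log2 effects, was -0.01 for CYP4Z1, 0.15 for PIP and -0.16 for OLFM4. It was -0.38 for AZGP1, -0.37 for SCGB2A2, 0.52 for MUCL1 and -0.48 for CEACAM6 on its brighter probe set, with -0.24 on the dimmer. The central 95% of bright genes lay between -0.47 and 0.46, so CEACAM6 on the brighter probe set was just outside that range. MUCL1, not bright itself, lay inside the range of genes kept, -0.94 to 1.11. With both knockdowns over the control, OLFM4 was 4.64-fold lower, PIP 3.84-fold, CYP4Z1 3.21-fold, CEACAM6 2.33-fold on its brighter probe set, AZGP1 1.83-fold and MUCL1 1.57-fold. These are 6 of the 8 members kept, where 5.74% of genes kept were at least 1.5-fold lower in this single pair of arrays. OLFM4, PIP, CYP4Z1 and AZGP1 had been chosen for their fall with p53 shRNA, so nothing is read from this share. Of the 4 members kept that had not been, 2 were at least 1.5-fold lower, CEACAM6 and MUCL1. SCGB2A2 was at -0.50 and CEACAM5 at 0.41 on the log2 scale.

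Genes with the most similar profile were sought among the other 7731 bright genes by the Euclidean distance between log2 signals centred on their mean over the 4 arrays. The profile nearest to PIP was that of OLFM4, at a distance of 0.44, followed by the neuroligin gene NLGN4X at 0.78 and DDIT4L at 0.94. For OLFM4 the order was PIP at 0.44, NLGN4X at 0.55 and CYP4Z1 at 0.82. For AZGP1 the nearest were GTSF1 at 0.15, DDIT4L at 0.18 and KRTCAP3 at 0.24, with CEACAM6 at 0.40 as number 8. For CYP4Z1 they were DIO2 at 0.34, NLGN4X at 0.41 and CEACAM6 at 0.43. DIO2, which encodes an enzyme that activates thyroid hormone, had log2 ratios of -0.69 and -0.997 with p53 shRNA and of -0.36 and -0.67 with Pontin siRNA. GTSF1 had p53 log2 ratios of -0.82 and -1.13, and DDIT4L -0.91 and -1.46. SCGB2A2 was number 2180 in likeness to PIP. With 4 arrays, a distance describes these arrays only. PIP, OLFM4, CYP4Z1 and AZGP1 were all chosen for a fall on these arrays, so their nearness to each other rests on values that the choice used.

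**Figure D3:**
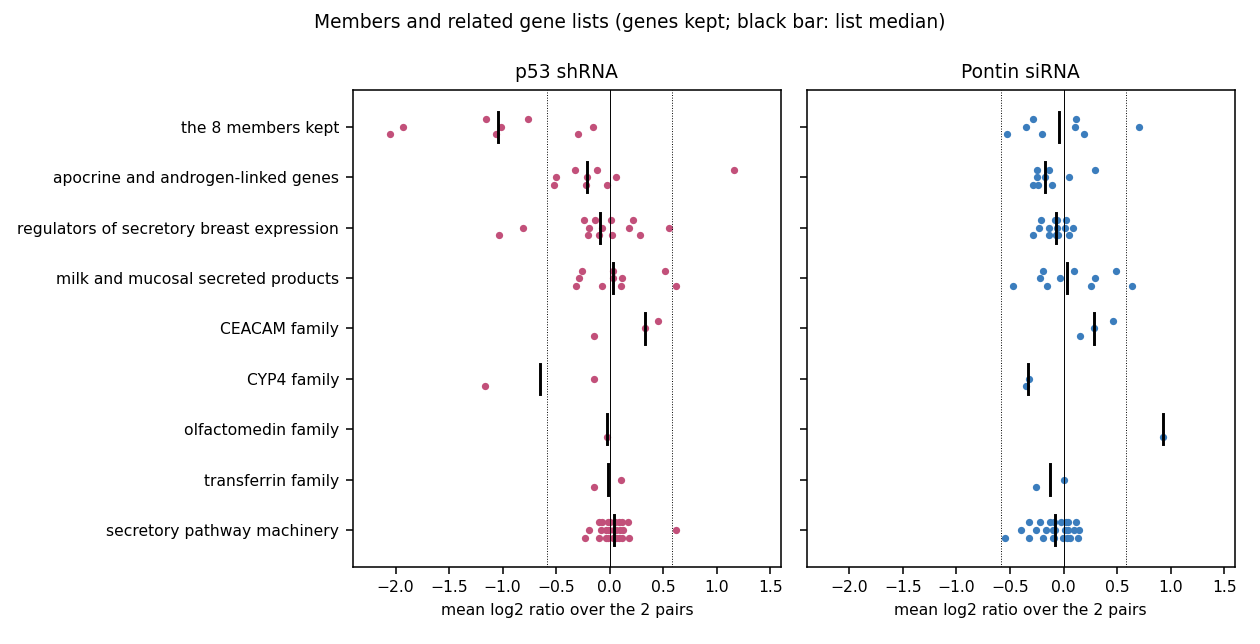
Mean log2 ratio over the 2 pairs for each gene kept in the member set and in related gene lists, with p53 shRNA left and Pontin siRNA right. Each point is a gene, the black bar is the list median and dotted lines mark 1.5-fold. The member median with p53 shRNA was -1.04, while the medians of the apocrine list, the milk list and the secretory machinery were -0.21, 0.03 and 0.04. Of the 8 members 4 were chosen for their fall with p53 shRNA, and the other 4 had a median of -0.53.

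Related genes were grouped in 9 lists by role, chosen with earlier results of these data known. Over all genes kept, 0.863% were called lower and 1.38% higher with p53 shRNA. Among regulators of secretory breast expression, 14 of 17 were kept, 2 were called lower and 0 higher with p53 shRNA, and the list median was -0.09. GATA3, a luminal transcription factor gene, had signals of 350.4 with both knockdowns and 334.8 with p53 shRNA, against 556.2 with Pontin siRNA and 650.5 with control shRNA, log2 ratios of -0.96 and -0.67. Its 2 further probe sets gave -0.81 and -0.60, and -0.57 and -0.52, so the last of these stayed under 1.5-fold. ELF5, a transcription factor gene of alveolar secretory cells, had 70.2 with both knockdowns and 55.4 with p53 shRNA, against 117.3 with Pontin siRNA and 138.3 with control shRNA, ratios of -1.32 and -0.74. Its other probe set gave -0.02 and -1.69, so the call rests on 1 probe set. FOXA1, a pioneer factor gene that acts with steroid receptors, was at 0.15 and 0.29, and the prolactin receptor gene PRLR at 0.23 and 0.12. TFAP2C, the brightest of the list, was at -0.01 and 0.05. With Pontin siRNA 0 of these 14 genes were called.

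Of 18 apocrine and androgen-linked genes, 9 were kept, and 0 were called with either knockdown. Their median was -0.21 with p53 shRNA, with 5 below 0 in both pairs, and -0.18 with Pontin siRNA. TFAP2B, a transcription factor gene, was at -0.47 and -0.54 with p53 shRNA, and CRAT, which encodes carnitine acetyltransferase, at -0.69 and -0.34. FKBP5, a chaperone gene induced by androgens and glucocorticoids, was at -0.07 and -0.16, and KLK3, the prostate-specific antigen gene, at -0.27 and -0.39 with signals of 79.2 to 117.0. DHRS2, the brightest, was at -0.04 and 0.15. No kept gene of the apocrine list thus passed 1.5-fold in both pairs.

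Of 21 milk and mucosal products, 10 passed the filter and 0 of them were called, with a median of 0.03 under each knockdown. AGR2, a secreted disulfide isomerase gene and the brightest of the list, had signals of 1921.9 with both knockdowns and 2791.2 with p53 shRNA, against 2115.0 with Pontin siRNA and 2790.7 with control shRNA. Its p53 log2 ratios were 0.00 and -0.14, and its Pontin ratios -0.40 and -0.54. The trefoil factor gene TFF1 was at 0.81 and 0.43 with p53 shRNA, at signals of 44.9 to 84.6, and the mucin gene MUC1 at -0.25 and -0.26. The casein genes CSN1S1, CSN2 and CSN3 lay between 0.7 and 11.1 and were not kept. Of 28 genes of the secretory pathway machinery, 26 were kept and 0 were called, with medians of 0.04 with p53 shRNA and -0.08 with Pontin siRNA. SRP9, a signal recognition particle gene and the brightest, was at -0.11 and 0.19 with p53 shRNA.

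In the members' own families, signals were mostly low. Of 8 other secretoglobin genes, 6 had a probe set of a single symbol and none was kept. SCGB2A1, the paralogue of SCGB2A2, had 18.3 with both knockdowns and 15.6 with p53 shRNA, against 6.1 with Pontin siRNA and 18.9 with control shRNA. Of 10 other CEACAM genes, 3 were kept and 0 called, with CEACAM19 as the brightest at 0.45 and 0.21 with p53 shRNA. Of 11 other CYP4 genes, 2 were kept, and CYP4X1 was the call among them. CYP4B1, the brighter one, was at -0.14 and -0.15 with p53 shRNA and at -0.32 and -0.33 with Pontin siRNA. Of 7 olfactomedin relatives OLFM2 alone was kept, with p53 ratios of -0.84 and 0.79 at signals of 8.5 to 28.5. The transferrin list had 2 genes kept, 0 called, and TFRC, the transferrin receptor gene, at 0.08 and 0.14.

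**Figure D4:**
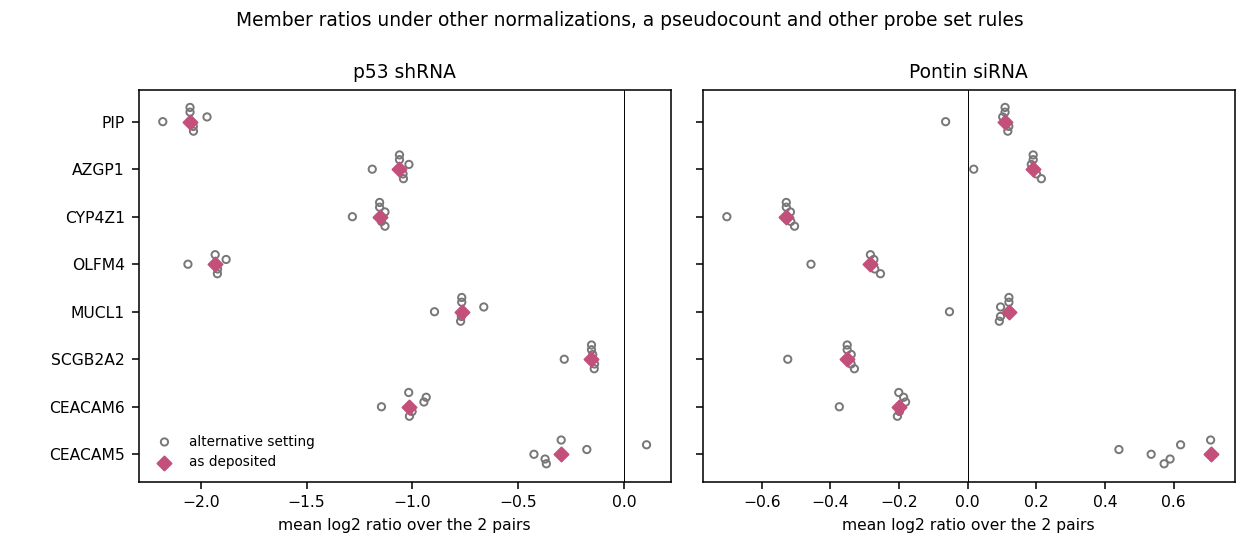
Mean log2 ratio of each of the 8 members kept as deposited (red diamonds) and under other normalizations, a pseudocount and other probe set rules (open circles), with p53 shRNA left and Pontin siRNA right. With p53 shRNA the PIP values stay between -2.18 and -1.97, while CEACAM5 lies between -0.43 and 0.11 and crosses 0.

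The p53 calls of PIP, AZGP1, CYP4Z1, OLFM4 and CEACAM6 were unchanged by quantile normalization, cyclic loess and the pseudocount. The additive limma fit, with 1 residual degree of freedom, called 0 of them, and 0 of all genes kept, at an adjusted p of 0.05. Leaving out the array with both knockdowns keeps the single pair of p53 shRNA and control shRNA. In it these 5 genes and MUCL1 were at least 1.5-fold lower, 6 of 8 members, where 3.76% of genes kept were. In the other pair, which leaves out the control array, it was the same 5 genes without MUCL1, where 3.92% of genes kept were. At 2-fold in both pairs 3 members were called, PIP, OLFM4 and CYP4Z1, where 0.174% of genes kept were. These 3 genes and AZGP1 had been chosen for their fall with p53 shRNA, so nothing is read from these member counts.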

How the data were processed

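RNA from 4 SK-BR-3 cultures was hybridized to 1 Affymetrix array each, from 200 ng of total RNA per the labels. The deposited values are linear MAS5 signal intensities; the tool, without a version, is given per the submitters' processing notes. The mean without the lowest and highest 2% was 150.0 on each array, so the authors had scaled the arrays. No detection calls or scanner files were used here, and the number of arrays limits the precision.

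Gene symbols came from the platform's annotation table and were updated by Entrez identifier. Of 54675 probe sets, 41091 had 1 symbol (41037 matched), 1801 several and 11783 none listed or were controls. The 14 signals of 0 were set to 0.1, and log2 was taken with no pseudocount. A gene was its probe set of highest mean log2 signal, and the 12056 of 19775 genes at or above the median probe set were kept. Calls needed 1.5-fold in both pairs, with no test. The rule was tested on simulated data. Named genes were the members, called or brightest list members and the 3 nearest profiles, plus others chosen after their values were seen. Members and lists were chosen with earlier results of these data known. Python 3.11.15, R 4.3.3 and limma 3.58.1 were used. All 10 members matched RefSeq promoter windows. The level of the p53 shRNA's own target transcript is not reported here. Alternatives covered normalization, pseudocount, filter, probe set rule, fold and an additive limma fit. Those that leave out an array were chosen after seeing the data.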

Additional observations from a re-analysis of the deposited data

Results flagged for a closer look

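Several member ratios had opposite signs in the 2 pairs of a knockdown, and none of these differences was tested. For MUCL1 the Pontin log2 ratio was -0.14 on the control shRNA background and 0.38 with p53 shRNA, a difference of 0.52. For CEACAM6 on its brighter probe set it was 0.04 and -0.44, a difference of -0.48. SCGB2A2 had p53 log2 ratios of 0.03 without and -0.34 with Pontin siRNA, a difference of -0.37. CEACAM5 on its dimmer probe set differed by 1.77 between pairs for either knockdown, with p53 ratios of -0.38 and 1.40 and Pontin ratios of -0.35 and 1.42, at signals of 6.4 to 17.1. LTF differed by -2.17 for either knockdown, but at signals of 0.7 to 2.1, from which no change is read.

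The probe set shared by AZGP1 and AZGP1P1 was used in no comparison of members. Its highest signal was 112.8 with Pontin siRNA, against 75.9 with control shRNA, and its Pontin log2 ratios were 0.57 and 1.24, where those of the AZGP1 probe set were 0.38 and 0.00.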

How the results depend on the processing

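The members' p53 calls held under most settings, but not in the limma fit. Of 5 members called lower, 5 were called after quantile normalization, cyclic loess, the pseudocount of 16, without a filter, in bright genes only and with probe sets averaged. Median centring added MUCL1, for 6, and shifted the median of all genes kept to -0.13 with p53 shRNA and -0.16 with Pontin siRNA, so members are best read against it. Without probe sets ending in _s_at or _x_at 4 were called, OLFM4 having no probe set left. At 2-fold 3 were called. The additive limma fit, with 1 residual degree of freedom, called 0 members and 0 genes for either knockdown at an adjusted p of 0.05. At an unadjusted p below 0.05 it had 604 of 12056 genes lower and 785 higher with p53 shRNA. The 6 members among them were PIP, AZGP1, CYP4Z1, OLFM4, MUCL1 and CEACAM6, of which the first 4 had been chosen for their fall. With Pontin siRNA 888 genes were lower and 851 higher. The 2 members among these were CYP4Z1 and CEACAM5, with mean log2 ratios of -0.53 and 0.71. Nothing is read from these member counts. Without a filter SCGB1D2 was called for both knockdowns, higher for p53 shRNA and lower for Pontin siRNA, 1 member each. In the pair without the control array CEACAM5 was 1.5-fold higher with Pontin siRNA, 1 member. The mean p53 ratio of CEACAM5 was 0.11 with probe sets averaged and below 0 in the other 8 settings.

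Counts over all genes moved more. As deposited, p53 shRNA gave 166 higher and 104 lower calls, and Pontin siRNA 140 higher and 149 lower. Higher calls with Pontin siRNA were 75 after quantile normalization and 77 after cyclic loess. Median centring gave 98 higher and 179 lower with p53 shRNA and 54 higher and 249 lower with Pontin siRNA. The pseudocount gave 55 higher and 56 lower with p53 shRNA and 34 higher with Pontin siRNA. Without a filter there were 1188 higher and 719 lower with p53 shRNA and 1186 higher and 735 lower with Pontin siRNA. Bright genes alone gave 17 and 32, and 14 and 85, in the same order. At 2-fold the counts were 28 and 21, and 15 and 14. In the single pair without the array with both knockdowns they were 604 and 453, and 511 and 466. Without the control array they were 704 and 472, and 778 and 641. The cause of these shifts was not tested, except that fewer or more genes are read by each filter and a single pair sets 1 condition in place of 2.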
